A study of Mus musculus with 24 samples.

Results

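Star strands are the partners that accompany guide miRNAs out of the same hairpin, and on the Agilent mouse array of this series they carried an asterisk after the name. All non-control probes whose name began with mmu- and ended in an asterisk were taken, which gave 115 star strands among 566 mouse miRNAs. For 103 of them the guide, the miRNA of the same name without the asterisk, was also on the array. The study compared 2 pools of commercial mouse total RNA across miRNA technologies. Reference 1 held equal amounts of RNA from testicle, ovary and embryos of 10 to 12 days, and Reference 2 held equal parts of liver, heart and lung RNA. No treatment was named for either pool, and neither strain nor animal age was given, apart from the age of the embryos. No listed tissue was common to both pools, but embryos hold many tissues. miR-1 of heart and miR-122 of liver were detected on both arrays of Reference 1 as well as of Reference 2. Each pool is represented by 2 one-color arrays, and all 4 lay on a single slide. Per the study's methods, more arrays of each pool were hybridized and those used were drawn from them at random. The 2 arrays of a reference hold aliquots of the same pool, so the spread between them and all p-values below are technical, and within a pool fewer cells of a type cannot be told apart from less RNA per cell.

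A miRNA hairpin is cut by Drosha and Dicer into a short duplex of a 5p and a 3p strand. As a rule one strand, the guide, is loaded into an Argonaute protein and directs repression of mRNAs that pair with its seed, the stretch near its 5′ end, while the passenger or star strand is discarded. The choice is known to depend on how weakly the 5′ end of a strand is paired and on its first base, with U favoured in mammals. For some hairpins both strands are loaded, and databases have since replaced the asterisk by 5p and 3p names.

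The sequences below are those of the pairs on which the results turn, from RefSeq on build GRCm38.p6, with the seed (bases 2 to 8) in capitals. The array files hold no sequences, so the older array names were matched to current 5p and 3p names by nomenclature. The first set holds the miR-30 pairs and the star strand of miR-140, which were measured in both references. RefSeq entries for the guide of miR-140 and for both strands of miR-133a were not used here.
miR-30a* (miR-30a-3p): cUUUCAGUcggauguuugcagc
miR-30a guide (miR-30a-5p): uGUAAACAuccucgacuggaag
miR-30e* (miR-30e-3p): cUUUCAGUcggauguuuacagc
miR-30e guide (miR-30e-5p): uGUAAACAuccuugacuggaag
miR-140* (miR-140-3p): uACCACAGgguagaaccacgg

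The second set holds star strands that were higher in Reference 1, chosen from those described below. Guides are shown beside them, apart from that of miR-34c, because each strand has a seed of its own.
miR-9* (miR-9-3p): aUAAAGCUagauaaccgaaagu
miR-9 guide (miR-9-5p): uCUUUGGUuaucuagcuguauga
miR-299* (miR-299a-5p): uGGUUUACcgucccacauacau
miR-299 guide (miR-299a-3p): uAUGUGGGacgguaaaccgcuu
miR-136* (miR-136-3p): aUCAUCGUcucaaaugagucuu
miR-136 guide (miR-136-5p): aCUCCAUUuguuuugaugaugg
miR-411* (miR-411-3p): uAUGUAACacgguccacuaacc
miR-411 guide (miR-411-5p): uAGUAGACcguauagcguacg
miR-34c* (miR-34c-3p): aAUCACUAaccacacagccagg

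The third set holds star strands that were lower in Reference 1 and 1 pair, miR-17, that did not differ in the main comparison.
miR-22* (miR-22-5p): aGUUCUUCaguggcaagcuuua
miR-22 guide (miR-22-3p): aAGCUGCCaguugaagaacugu
miR-29c* (miR-29c-5p): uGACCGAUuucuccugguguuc
miR-29c guide (miR-29c-3p): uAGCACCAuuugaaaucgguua
miR-24-1* (miR-24-1-5p): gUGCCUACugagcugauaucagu
miR-24-2* (miR-24-2-5p): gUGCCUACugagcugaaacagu
miR-24 guide (miR-24-3p): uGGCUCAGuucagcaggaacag
let-7b* (let-7b-3p): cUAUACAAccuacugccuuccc
let-7b guide (let-7b-5p): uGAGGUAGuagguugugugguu
miR-17* (miR-17-3p): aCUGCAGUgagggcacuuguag
miR-17 guide (miR-17-5p): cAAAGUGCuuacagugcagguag

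A mature sequence was found for 95 of the 115 star strands, of which 60 were 3p and 35 were 5p strands. Both strands were found for 80 of the pairs, and none of these 80 shared a seed with its guide. The guide began with U in 45 of the 80 pairs and the star strand in 17, and the star strand began with C in 29 pairs against 9 for the guide. Median length was 22 bases for both strands, and the median GC content was 45.5% for star strands and 43.5% for guides. Some star strands are near copies of one another, so that their probes may share targets. miR-30a* and miR-30e* have the seed UUUCAGU in common and differ by 1 base. miR-24-1* and miR-24-2* share the seed UGCCUAC and differ by 2, let-7b* and let-7f* share UAUACAA and differ by 2, and miR-299* differs by 1 base from a strand of miR-299b. The miR-30a* sequence lies at chr1:23272315-23272336 (plus strand) outside any other listed gene, and that of miR-30e* at chr4:120772618-120772639 (minus strand) within the span of Nfyc. miR-140* lies at chr8:107551288-107551308 (plus strand) within the span of Wwp2. miR-24-1* and miR-24-2* come from different loci, on chromosomes 13 and 8, and miR-9* is encoded at 3 loci, on chromosomes 3, 7 and 13.

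Signals are given as log2 of the median spot signal after cyclic lowess normalization, with no background taken off. Each miRNA has the median of its spots on an array, of which the median star strand had 20. On each array, a miRNA was called detected where at least 50% of its spots were marked well above background by the scanner software. Negative control spots had a median raw signal of 44 to 49, and the median star strand 40.8 to 44.0. Over all mouse miRNAs, up to 222 were detected on an array of Reference 1 and up to 157 on one of Reference 2. No spot was saturated. A list of 17 miRNAs known from tissues of the pools, not each from a single tissue, included miR-449a of testis and miR-122 of liver. All but miR-34b-3p, listed with lung, were higher in the pool they were listed with, and miR-34b-3p was higher in Reference 1 by 0.13.

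Most star strands gave no signal above background. Of the 115, 25 (21.7%) were detected on at least 1 array and 6 on all 4, while 90 were detected on none. The share over all mouse miRNAs was 42.2% on at least 1 array and 24% on all 4. Of the 103 guides, 76 were detected on at least 1 array and 50 on all 4. The Reference 1 arrays detected 16 and 18 star strands, and the Reference 2 arrays 14 and 11. By pair, both strands were detected in 17 cases, only the guide in 59, only the star strand in 4 and neither in 23. The star strand was dimmer than its guide on all 4 arrays in 81 pairs, brighter on all 4 in 10, and in 12 the order differed between arrays. Different probes differ in brightness, so the order of signals is not an order of amounts. Among star strands with a sequence, 7 of the 22 detected and 11 of the 73 undetected ones began with U.

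**Figure D1:**
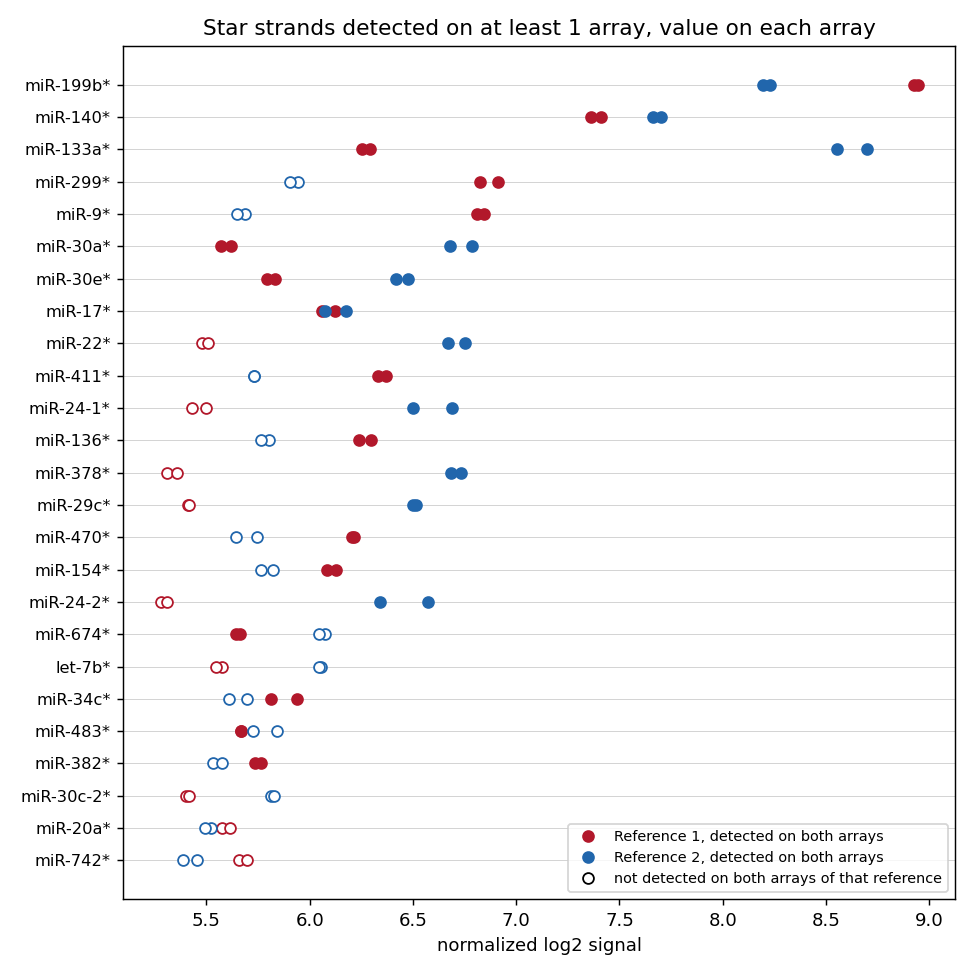
Normalized log2 signal (x axis) of the 25 star strands detected on at least 1 array, ordered by mean signal, with 1 point per array. Filled points mark a reference in which the star strand was detected on both arrays, and open points one in which it was not. The references lie far apart for miR-133a* and overlap for miR-17*.

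Comparing the references asks which star strands differ between the gonad and embryo pool and the liver, heart and lung pool. At an adjusted p under 0.05 (limma with Benjamini-Hochberg adjustment over all 566 mouse miRNAs), 18 star strands were higher in Reference 1 and 31 were lower, so that 49 of 115 differed. Over all mouse miRNAs 58.1% differed, 29.9% higher and 28.3% lower. Of the 25 detected star strands 11 were higher and 13 lower, which leaves 7 higher and 18 lower among those detected on no array, where values stand at the background and differences reached at most 0.47. Of the detected strands, 9 were detected on both arrays of Reference 1 alone and 5 on both of Reference 2 alone. Such strands passed the filter through the reference in which they were high, so nothing is read from the number or direction of calls among the 25. The split of the calls rested on the scaling. It was 18 higher and 88 lower after median centering, 16 and 46 after quantile normalization, 19 and 41 in the deposited values, and 15 and 9 on unnormalized signal. The processed signal, from which the scanner software had subtracted background, gave 19 and 11 when scaled over detected probes and 14 and 19 when scaled over all probes. The median difference of the 115 star strands was -0.02 and its median size 0.04, against 0.33 for the 103 guides and 0.08 for all 566 miRNAs. Background left in the signal compresses the differences of dim strands.

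Only 4 pairs had both strands detected on all 4 arrays, those of miR-133a, miR-30a, miR-30e and miR-140. These allow the ratios of star strand and guide to be set beside each other as measured, with background left in the signal. In miR-133a, a miRNA of heart and skeletal muscle, both strands fell together. miR-133a* read 6.29 and 6.25 in Reference 1 and 8.56 and 8.70 in Reference 2. Its difference, Reference 1 minus Reference 2, was -2.35 ± 0.05 (SE, limma adjusted p = 1.16e-26), a 5.12-fold lower signal. The guide read 8.15 and 8.06 against 10.55 and 10.55, a difference of -2.45 ± 0.05. The groups did not overlap for either strand, and the ratios differed by 0.09 ± 0.05 (adjusted p = 0.0635 over 165 strand pairs of the array). That difference passed the test under 9 of 16 alternatives, among them a normexp background correction at 0.25. It was 0.11 without the first array of Reference 1, 0.16 without the second of Reference 2, and -0.09 with the processed signal. The highest value was 0.47, so the star strand fell less than its guide there. With median centering the star strand differed by -1.97 and the guide by -2.44, and with no normalization by -1.93 and -2.40. With outlier spots left out the guide difference was 0.20 (limma adjusted p = 0.392) and the ratio difference -2.70 (limma adjusted p = 0.00171), so that the fall of the guide was not seen in that setting.

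In the miR-30 pairs, both strands were lower in Reference 1 and, as measured, the star strand less so than its guide. miR-30 guides are broadly expressed miRNAs that are abundant in heart, lung and liver. miR-30a* read 5.57 and 5.62 in Reference 1 and 6.68 and 6.79 in Reference 2, a difference of -1.14 ± 0.04 (adjusted p = 9.69e-22). Its guide read 7.82 and 7.82 against 9.57 and 9.69, a difference of -1.81 ± 0.05. No value of one reference reached those of the other. The star ratio lay above the guide ratio by 0.67 ± 0.05 (limma adjusted p = 1.08e-27), and by 0.43 to 1.09 over 16 alternative settings, all past the threshold. In Reference 1, however, miR-30a* stood near the dimmest detected miRNA of each array (5.52 and 5.50), and star strands detected on no array reached 6.03. Background left in the signal compresses the difference of so dim a strand, and the gap was 0.43 with the processed signal. How much of the gap this makes up was not tested. miR-30e* read 5.83 and 5.79 in Reference 1 and 6.42 and 6.47 in Reference 2, a difference of -0.63 ± 0.03. Its guide read 7.09 and 7.09 against 8.03 and 8.06, a difference of -0.95 ± 0.04. Again no value of Reference 1 reached those of Reference 2. miR-30e* was also dim in Reference 1, so the same limit holds for it. The star ratio of miR-30e lay above the guide ratio by 0.32 ± 0.04 (limma adjusted p = 4.13e-11), and lost its call at 0.20 with outlier spots left out and at 0.29 with the processed signal scaled over all probes. The brighter of the 2 probes of miR-30e* gave -0.84 and the dimmer -0.39, while the guide probes gave -0.97 and -1.02.

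In miR-140, the strands went in opposite directions. miR-140 is known from cartilage, where its guide acts in skeletal growth. Its star strand was the second brightest on the array among star strands. miR-140* read 7.36 and 7.41 in Reference 1 and 7.66 and 7.70 in Reference 2, a difference of -0.30 ± 0.04 (limma adjusted p = 8.57e-07). The guide read 7.82 and 7.86 against 7.65 and 7.71, a difference of 0.16 ± 0.05 (limma adjusted p = 0.00349). The arrays of the references did not overlap for either strand, and the star strand was the lower on both arrays of Reference 1 while the order varied in Reference 2. The star ratio minus the guide ratio was -0.46 ± 0.04 (limma adjusted p = 8.86e-21). This difference kept its sign under 16 alternatives. It was -1.04 with outlier spots left out, where it did not pass the test (limma adjusted p = 0.17), and between -0.66 and -0.44, past the threshold, in the other 15. The 2 probes of the star strand gave -0.18 and -0.36 and those of the guide 0.26 and 0.14. The direction of each strand alone rested on the scaling, since the star difference was 0.047 with median centering and 0.087 with no normalization, both not past the threshold, and the guide difference was -0.96 with the processed signal scaled over all probes.

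**Figure D2:**
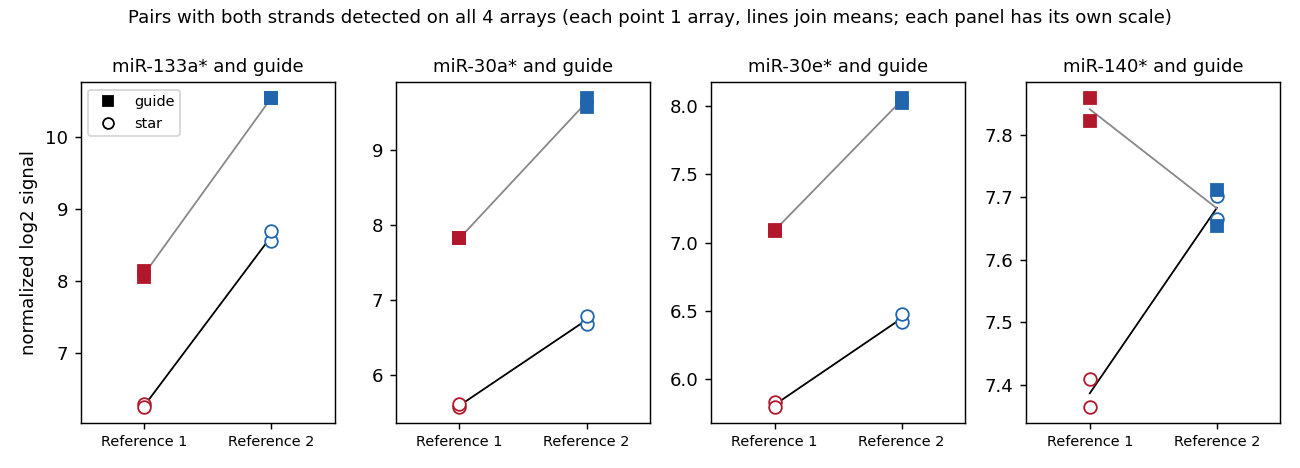
Normalized log2 signal (y axis, a separate scale in each panel) of star strand (open circles) and guide (filled squares) on each array, for the 4 pairs detected on all 4 arrays, with lines joining the reference means. Lines run in parallel for miR-133a, the guide line is the steeper for miR-30a and miR-30e, and the lines of miR-140 slope in opposite directions.

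The brightest star strand was miR-199b*, from a hairpin known in mesenchymal cells, whose other strand has the same sequence as miR-199a-3p. miR-199b* read 8.94 and 8.93 in Reference 1 and 8.23 and 8.20 in Reference 2, a difference of 0.72 ± 0.05 (limma adjusted p = 1.99e-14). The references did not overlap. miR-199a-3p had a difference of 2.08 and miR-199a-5p one of 1.43, and these were not tested against the star strand. The brighter probe of miR-199b* gave 1.18 and the dimmer 0.18, and the difference turned to -0.68 with the processed signal scaled over all probes, a setting in which the median difference of all miRNAs was also -0.68. miR-17*, from the miR-17 cluster known in proliferating cells, was the only star strand detected on all 4 arrays that did not differ in the cyclic lowess values. It read 6.06 and 6.12 in Reference 1 and 6.07 and 6.18 in Reference 2, with overlapping arrays and a difference of -0.03 ± 0.04 (limma adjusted p = 0.45). Both of its probes, taken alone, gave values above 0, at 0.12 and 0.04. The difference depended on the scaling and was 0.47 with median centering and 0.51 with no normalization, both past the threshold. It also passed at 0.18 in the deposited values and at 1.60 with the processed signal scaled over detected probes. The miR-17 guide was detected in Reference 1 alone and stood at background in Reference 2. Its difference was 0.00 (limma adjusted p = 0.938), and 0.43 with median centering and 0.47 with no normalization. With the processed signal it was 2.82 scaled over detected probes and 1.27 over all probes.

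Further star strands were detected in Reference 1 alone, and for them the fold is a lower bound. It is set against the dimmest detected miRNA of each Reference 2 array, or the strand's own signal where that is higher. Such bounds, here and below, hold for the cyclic lowess values alone, and some alternatives gave less. Over 16 alternatives the log2 difference was as small as 0.74 for miR-299* and 0.27 for miR-411*. The largest cyclic lowess difference among these strands was that of miR-9*. Its hairpin is known in the developing nervous system, where both of its strands are active. miR-9* read 6.81 and 6.85 in Reference 1 and 5.69 and 5.65 in Reference 2, at least 1.91-fold higher (limma adjusted p = 1.35e-22). Its guide was also detected in Reference 1 alone, at 5.76 and 5.75 against 5.41 and 5.39, so that no fold was formed. The star strand was the brighter on all 4 arrays. Both strands stood at background in Reference 2, so their ratios were not set against each other.

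miR-299*, miR-411*, miR-136*, miR-154* and miR-382* come from the imprinted Dlk1-Dio3 region of chromosome 12, whose miRNAs are known from embryo and placenta and are expressed from the maternal allele. miR-299* read 6.91 and 6.83 in Reference 1 against 5.94 and 5.90, at least 1.89-fold higher (limma adjusted p = 1.69e-19). Its guide was detected on no array. The 2 probes of miR-299* gave 1.41 and 0.37, so that the size of its difference depended on the probe. miR-411* read 6.33 and 6.37 against 5.73 and 5.73, at least 1.38-fold higher, while its guide was at least 1.88-fold higher. miR-136* read 6.30 and 6.24 against 5.80 and 5.76, at least 1.30-fold higher (limma adjusted p = 8.75e-14). All its Reference 1 values stood above those of Reference 2. The miR-136 guide read 5.74 and 5.71 against 5.69 and 5.68, and its difference of 0.04 did not pass the test (limma adjusted p = 0.196), although it did under 7 of 16 alternatives. miR-154* read 6.13 and 6.08 against 5.82 and 5.77, at least 1.16-fold higher, beside at least 1.14-fold for its guide, and the ratios as measured differed by 0.07 ± 0.04 (limma adjusted p = 0.0893). That difference ranged from 0.041 to 2.82 and passed the test under 7 of 16 alternatives, at 1.79 and 2.82 with the 2 scalings of the processed signal. miR-382* read 5.77 and 5.73 against 5.53 and 5.58, a difference of 0.20 that allowed no bound above 1.

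Other star strands detected in Reference 1 were miR-470*, miR-34c* and miR-742*, from hairpins known in testis. miR-470* read 6.21 and 6.21 in Reference 1 against 5.75 and 5.64, at least 1.25-fold higher, and its guide was at least 1.33-fold higher. miR-34c* read 5.81 and 5.94 against 5.61 and 5.70, a difference of 0.22 ± 0.04 (limma adjusted p = 2.91e-06) whose arrays did not overlap. The miR-34c guide, abundant in spermatocytes, read 9.19 and 9.23 against 7.06 and 7.22, a 4.20-fold higher signal. As miR-34c* was not above background in Reference 2, the size of its difference is not known. The star ratio minus the guide ratio was -1.85 as measured and turned to 1.40 and 2.05 with the 2 scalings of the processed signal, where 1 array of the star strand stood at the floor. miR-742*, detected on 1 array, read 5.66 and 5.70 against 5.45 and 5.39 beside a guide detected on none.

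Among star strands detected in Reference 2 alone, miR-378*, miR-22*, miR-29c*, miR-24-1* and miR-24-2* were lower in Reference 1. Their folds are bounds for the cyclic lowess values alone. Over 16 alternatives the log2 difference was as small as -0.74 for miR-378*, -0.59 for miR-22* and -0.48 for miR-29c*. For miR-24-1* and miR-24-2* it was as small as -0.61 and -0.63. miR-378 is known from metabolic tissue. miR-378* read 5.31 and 5.36 in Reference 1 and 6.73 and 6.68 in Reference 2, at least 2.30-fold lower (limma adjusted p = 7.02e-25). Its guide was 2.47-fold lower, and the ratios as measured differed by -0.07 ± 0.04 (limma adjusted p = 0.158). That difference ranged from -1.38, with the processed signal, to 0.17, in the deposited values, and passed the test under 5 of 16 alternatives. miR-22, known in heart muscle, had a star strand at 5.48 and 5.51 against 6.75 and 6.67, at least 2.30-fold lower, and a guide at 10.54 and 10.55 against 11.62 and 11.46, 1.99-fold lower. The difference between these ratios, of which that of the star strand is a bound, was -0.22 as measured and turned to 0.83 with median centering or no normalization and to 0.47 in the deposited values.

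miR-29c, a repressor of collagen mRNAs, had a star strand at 5.41 and 5.42 against 6.52 and 6.50, at least 2.00-fold lower (limma adjusted p = 3.96e-23). Its guide was 2.64-fold lower. The star ratio minus the guide ratio was 0.30 as measured and -0.26 with the processed signal, and the star strand's own fall is known only as a bound. The star strands of the 2 miR-24 loci, were both undetected in Reference 1. miR-24-1* read 5.43 and 5.50 against 6.69 and 6.50, at least 2.12-fold lower, and miR-24-2* 5.28 and 5.31 against 6.34 and 6.57, at least 1.93-fold lower. Their common guide was 1.92-fold lower. The guide stood at 10.08 and 10.09 in Reference 1, where neither star strand was above background.

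The star strand had the higher signal on all 4 arrays, and was detected, in 7 pairs, those of miR-299, miR-9, miR-674, miR-483, miR-136, miR-17 and miR-742. Of these, 4 had a guide detected on no array, miR-299, miR-674, miR-483 and miR-742. The mean gap was 1.02 for miR-299 and 0.67 for miR-9, 0.61 for miR-674, 0.41 for miR-483, 0.32 for miR-136, 0.28 for miR-17 and 0.21 for miR-742. miR-674* read 5.64 and 5.66 in Reference 1 and 6.08 and 6.05 in Reference 2, a difference of -0.41 that turned to 0.53 with the processed signal scaled over detected probes, to 0.10 with median centering and to 0.14 on unnormalized signal. miR-483*, within the span of Igf2, read 5.67 and 5.67 against 5.73 and 5.84, a difference of -0.11 that turned to 1.43, 0.16 and 0.20 in the same settings, in that order. Both were marked above background on the 2 arrays of Reference 1, and on 1 and none of Reference 2.

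Over all 103 pairs, the star ratio lay above the guide ratio in 31 and below it in 45 at an adjusted p under 0.05, so that 76 differed. Over all 165 strand pairs of the array, 67.9% differed, 30.9% with the star or 3p strand above and 37% below. Among the 15 pairs with both strands detected on both arrays of a reference, the star ratio lay above in 5, below in 6, and 4 did not pass the test. Apart from the 4 pairs detected on all arrays, each of these pairs had at least 1 strand that was not detected on both arrays of one reference. Its measured ratio is then held by background, and the pair entered through the reference in which both strands were high, so nothing is read from the signs or the likeness of the ratios over the 15.

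**Figure D3:**
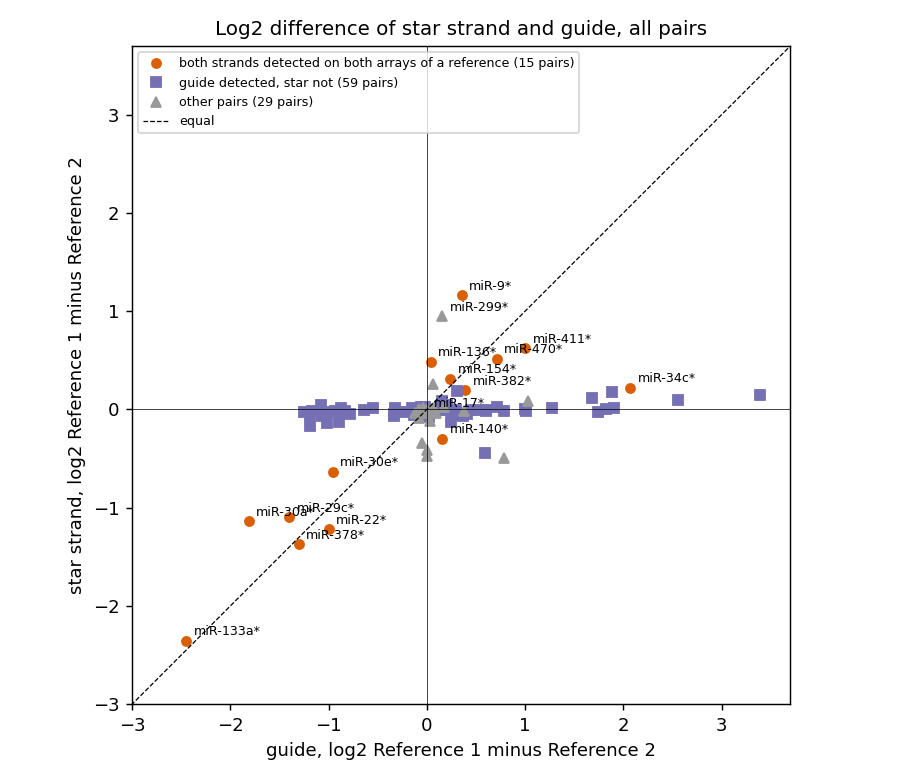
Log2 difference, Reference 1 minus Reference 2, of the guide (x axis) and of the star strand (y axis) for the 103 pairs, by detection. The dashed line marks equal differences, and miR-140* lies at -0.30 beside a guide at 0.16, while the 59 pairs in which only the guide was detected lie near 0 on the y axis, between -0.45 and 0.19.

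In the 59 pairs with only the guide detected, guide differences ran from -1.25 to 3.39 and star differences from -0.45 to 0.19. These star values lay at background, where the size of a change in a dim strand is not known. Over all star strands, 25 of those detected on no array were nonetheless past the threshold. miR-10b, a Hox cluster miRNA, gave the widest contrast. Its guide read 9.69 and 9.73 in Reference 1 against 6.35 and 6.29, a 10.5-fold higher signal, while miR-10b* read 5.43 and 5.40 against 5.29 and 5.24, a difference of 0.15. miR-322, of an X-linked cluster known in the embryo, was 5.89-fold higher in its guide, beside 5.49 and 5.44 against 5.37 and 5.37 in miR-322*.

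By hairpin group, star strands and guides both lay above 0 in the median for the Dlk1-Dio3 region and both below 0 for miR-30. Neither pattern was particular to these groups. Both medians were also above 0 in the male germline group (0.22 for star strands and 0.38 for guides), the miR-322 cluster and the neural group. Both were also below 0 in the miR-29 (-0.08 and -0.79), striated muscle, smooth muscle, epithelial, mesenchymal and stromal, pluripotent and miR-181 groups. Among 13 star strands of the Dlk1-Dio3 region, all listed within chr12:109590459-109738495, 8 were higher and 1 lower, with a median of 0.18, and 5 were detected. Over all mouse miRNAs, against which this and the following group counts are to be read, 29.9% were higher and 28.3% lower, with a median of -0.01. Of their 13 guides 12 were higher and none lower, with a median of 0.39. Under the alternative scalings and background correction that kept all 13 star strands, 6 to 9 were higher and 0 to 4 lower, the latter with median centering. All 5 star strands of the miR-30 group were lower (3 with no normalization), with a median of -0.41, and 3 were detected. That median is the value of miR-30c-2*, which was detected on 1 array. All 4 guides were lower too, with a median of -1.15. The star median stayed below 0 under each scaling, from -3.01, in a setting that kept 4 star strands, to -0.20.

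In the let-7 family, whose guides mark differentiated tissue, star strands and guides lay on different sides of 0 in the median. The same held for the miR-15, Hox, liver, blood cell and miR-17 cluster groups. Only 1 of the 7 let-7 star strands was detected, so the star median and most star values of the family lie at background. Of 7 star strands 4 were lower (none with no normalization) and none higher, with a median of -0.06, and of 7 guides 6 were higher and 1 lower, with a median of 0.59, while the processed signal gave 2 higher and 2 lower (median -0.02) when scaled over detected probes and 0 higher and 7 lower (median -1.58) over all probes, and median centering 3 higher and 1 lower (median 0.13). let-7b* was detected on 1 array and read 5.57 and 5.55 in Reference 1 against 6.05 and 6.05, at least 1.40-fold lower (limma adjusted p = 5.61e-15). Its guide read 10.80 and 10.79 against 9.98 and 10.04, a difference of 0.79. The star strand stood near background and the guide among the bright miRNAs.

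Star strands were undetected throughout in the epithelial and pluripotent groups. This was also so in the liver, blood cell, smooth muscle, Hox, miR-322, miR-15 and miR-181 groups, and 78.3% of all star strands were detected on no array. None of 6 star strands of the epithelial group, miR-200a, miR-200b, miR-200c, miR-141, miR-183 and miR-203, was detected, and 1 was lower, while 4 of the 6 guides were lower and 1 higher, with a median of -0.98. Of 8 star strands in the miR-17 clusters 2 were detected, 1 was higher and 1 lower, beside 6 of 8 guides that were higher, with a median of 0.39. The processed signal scaled over all probes gave 2 of these guides higher and 6 lower, with a median of -0.39. In the mesenchymal and stromal group 6 of 12 star strands were lower and 1 higher, as were 8 and 2 of 10 guides. The 6 star strands from hairpins of pluripotent cells, of the miR-290 and miR-302 clusters, were neither detected nor different, and none of their guides was detected. These counts varied with the setting. With median centering all 6 star strands of the pluripotent and all 6 of the epithelial group, and 6 of 8 in the miR-17 clusters, were called lower. Quantile normalization called 1 pluripotent and 2 epithelial star strands lower.

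**Figure D4:**
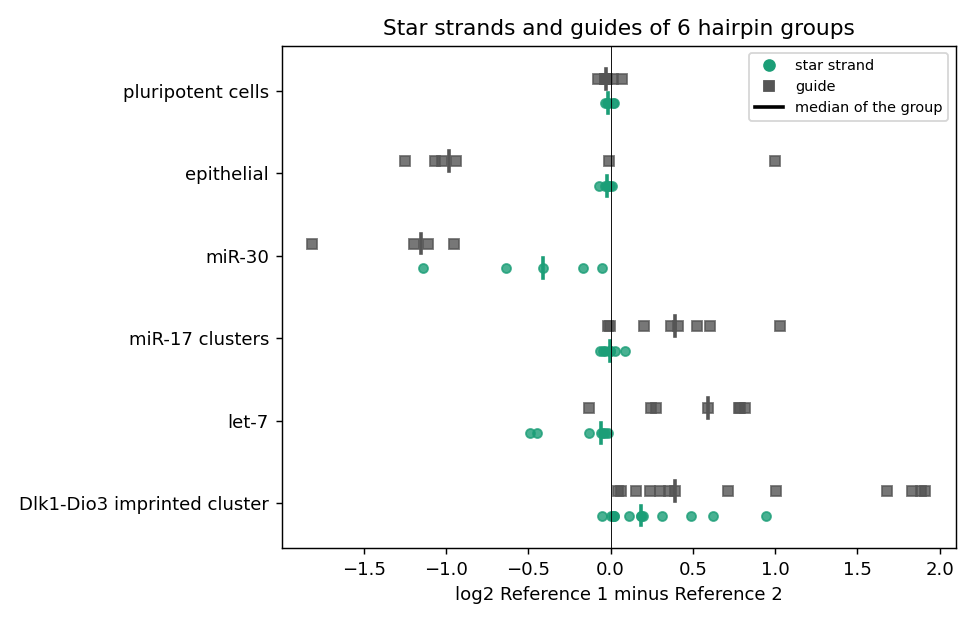
Log2 difference, Reference 1 minus Reference 2 (x axis), of each star strand (circles) and guide (squares) in 6 hairpin groups, with a bar at each median. Star strands of the miR-30 group lie left of 0 and most of the Dlk1-Dio3 cluster right of it, whereas epithelial star strands stay at 0 while 4 of 6 guides lie near -1.0.

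The 115 star strands had 397 probes, 2 to 4 each. Among the 49 star strands past the threshold, probes disagreed in sign for 9, of which 1 was a detected strand.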

How the data were processed

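The authors deposited the scanner files of 4 Agilent arrays with spot intensity, extracted per the labels with Feature Extraction 9.5.3.1 (9.5.1.1 per the file headers), and normalized log2 values of the same arrays. Median signals of all non-control spots were put on the log2 scale and normalized by cyclic lowess, as the methods state, and each miRNA took the median of its spots. References were compared with limma 3.58.1 in R 4.3.3, with an intensity trend and a threshold of 0.05 on the adjusted p. Differences between star strand and guide were formed within each array and fitted over 165 pairs, 103 of them star and guide and 62 of 3p and 5p names. The deposited log2 columns had medians of 5.48 to 5.49, correlated with the recomputed values at 0.999 or above over 560 miRNAs, and held 113 star strands. They were thus read as log2 values of the same arrays, not centred at 0. This correlation does not settle the normalization, and some calls and signs differed in the deposited values, as given below. The fit of the deposited values was an alternative, as were other normalizations, background correction and spot filters. In the processed-signal alternatives, scaling at the 75th percentile came before a floor of 1. Fits were tested on simulated data. The number of arrays limits the precision.

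Named strands were the 10 highest and 10 lowest star differences past the threshold and detected on both arrays of a reference (9 qualified as higher), the 10 brightest, the pairs with the largest differences of ratio in each direction with both strands so detected (5 above and 6 below qualified), and detected star strands brighter than their guide on all 4 arrays. Strands named beside these, such as let-7b*, miR-10b* and miR-322*, were chosen after their values were seen. Members, hairpin groups and tests were chosen with earlier results of these data known. Data of the other platforms were not used here, and the authors' files for them were left aside.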

Additional observations from a re-analysis of the deposited data

How the results depend on the processing

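Of 940 values recomputed for 60 results, 835 kept direction and side of the threshold, 33 lost the threshold, 30 gained it and 42 changed sign or direction. Of the 22 named star strands 17 kept sign and call under every alternative. Star strands lower in Reference 1 (31) numbered 88 with median centering, 9 with no normalization, and 11 and 19 with the processed signal scaled over detected and over all probes. With only miRNAs above background, 11 star strands were higher and 13 lower, and 5 pairs had the star ratio above and 8 below. Pairs with the star ratio above (31) and below (45) numbered 9 and 15, or 8 and 10, with the processed signal, and 19 and 27 with outlier spots left out. Among the pairs with both strands above background, the star ratio lay above (5) in 8 with quantile normalization, median centering or no normalization, in 9 in the deposited values and in 3 with outlier spots left out. Detection by any spot gave 38 star strands and 29 pairs with both strands, and by every spot 15 and 10. Leaving out 1 array gave 15 to 17 star strands higher and 23 to 32 lower, and 29 to 32 pairs above and 41 to 43 below, and 5 to 6 above and 6 to 7 below among pairs with both strands above background. Other ways of ordering the signals were chosen after seeing the data, and gave 79 to 86 pairs with the star strand dimmer on all 4 arrays.

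Signs turned as follows. With median centering, differences were 0.10 for miR-674*, 0.047 for miR-140*, 0.47 for miR-17*, 0.16 for miR-483*, 0.43 for the miR-17 guide and -0.049 for the miR-483 guide. With no normalization they were 0.14 for miR-674*, 0.087 for miR-140*, 0.51 for miR-17*, 0.20 for miR-483* and 0.47 for the miR-17 guide. Both settings gave ratio differences of 0.83 for miR-22, 0.21 for miR-483 and 0.18 for miR-674. With the processed signal over detected probes, differences were 0.53 for miR-674*, 1.60 for miR-17*, 1.43 for miR-483* and 2.82 for the miR-17 guide, and over all probes -0.68 for miR-199b*, -0.96 for the miR-140 guide and 1.27 for the miR-17 guide. The median difference of all miRNAs was 0.64 and -0.68 in these scalings. Their ratio differences were -0.26 for miR-29c, 0.010 for miR-470, and 1.40 and 2.05 for miR-34c. Deposited values gave 0.18 for miR-17*, 0.0038 for miR-483*, 0.22 for the miR-17 guide, and ratio differences of 0.47 for miR-22 and 0.17 for miR-378. Quantile normalization gave 0.12 for the miR-17 guide and 0.13 for the miR-378 ratio difference, normexp 0.034 for that of miR-22, and means over probes 0.079 for miR-17* and -0.063 for the miR-742 ratio difference. With outlier spots left out, the miR-133a guide gave 0.20 and its ratio difference was -2.70. The cause of these turns was not tested.

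The samples share only a replicate number, with deviations that correlated at 0.0612 over 566 miRNAs. With the replicate block, 18 star strands were higher and 31 lower, and 29 pairs lay above and 42 below. Signal over background limits all values of the 90 undetected star strands.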
